A study of Mus musculus with 12 samples.

Results

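The transcripts of cytosolic ribosomal proteins were examined in the liver of mice given bulaquine, a drug against malaria that belongs to the aminoquinolines and is turned into primaquine in the body. RNA from the livers of bulaquine-treated mice, taken 6, 12 or 24 h after the drug, was set against RNA from the livers of vehicle-treated mice on 12 spotted arrays with 2 dyes, 4 arrays at each time. The drug sample was in Cy5 on the arrays labelled F1 and F2 at each time, and in Cy3 on those labelled R1 and R2, with the vehicle sample in the other dye. Strain, sex, age and dose are not given in the sources used here, nor is it given whether F1 and R1 share RNA or whether vehicle animals were shared, so the p-values cover the spread among arrays, and some of it may be technical. The livers were taken whole, and fewer cells of a type and less RNA per cell cannot be told apart in such samples. The members are the spots whose only gene symbol begins with Rpl or Rps and a digit, or with Rplp, without the Rps6k kinases, and whose background-corrected intensity was above 0 in both dyes on all 12 arrays. These were 136 spots of 58 genes, among 11749 tested spots of 5691 genes and 23040 spots on an array. They comprise 74 spots of 32 large subunit genes, 52 spots of 21 small subunit genes, 6 spots of the 3 P stalk genes and 4 spots of the paralogues Rpl7l1 and Rps27l. There were 20 genes with a lone spot and 38 with 2 or more, up to 9 for Rpl3.

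Each cytosolic ribosome holds a copy of nearly every one of these proteins, assembled on ribosomal RNA in the nucleolus into a small subunit, which reads the mRNA, and a large subunit, which forms the peptide bond. Their mRNAs are abundant in liver, and most begin with a run of pyrimidines, the 5' terminal oligopyrimidine (TOP) tract, through which growth signalling by mTOR and the binding protein LARP1 governs their translation more than their amount. An array of total RNA measures the amount and not the translation. Free Rpl5 and Rpl11 bind Mdm2, which ties a fault in ribosome assembly to p53.

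The TOP tract is a sequence feature that the rule did not use. RefSeq start sites (assembly GRCm38.p6) were found for 47 of the 58 genes. An unbroken run of 8 or more bases, each C or T, that touched the 5 bases on either side of the start was looked for on the transcribed strand. It stood at 20 of the 57 listed starts of these genes (35.1%) and at 2015 of the 21263 starts of all protein-coding genes (9.48%). By gene, at any listed start, the counts were 20 of 47 (42.6%) and 1946 of 17492 (11.1%). The windows below hold the 15 bases before and the 15 from the start on, with the part of the run that lies in the window in capitals, for 5 genes described further on that have the run and for Rps15, which has none in this window. They lie at chr17:27635230-27635259 (Rps10, minus strand), chr14:18270972-18271001 (Rpl15, minus), chr9:64173372-64173401 (Rpl4, plus), chr4:86857353-86857382 (Rps6, minus), chr17:33955651-33955680 (Rps18, minus) and chr10:80292416-80292445 (Rps15, plus).
Rps10: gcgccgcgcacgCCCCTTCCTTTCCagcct
Rpl15: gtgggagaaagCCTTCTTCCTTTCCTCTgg
Rpl4: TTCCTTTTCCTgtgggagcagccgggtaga
Rps6: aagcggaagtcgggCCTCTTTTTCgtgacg
Rps18: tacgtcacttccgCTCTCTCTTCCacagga
Rps15: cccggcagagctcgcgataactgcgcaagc
A run found by this rule may end before the listed start or begin after it, so it need not be a TOP tract. In these windows the Rpl4 run ends before the start, and those of Rps10, Rpl15, Rps6 and Rps18 span it. The run is a description of these letters and was not tied to any change in the liver. The 20 genes with it had a median log2 ratio of bulaquine over vehicle of 0.05, 0.02 and 0.04 at 6, 12 and 24 h, and the 27 without it had 0.08, 0.01 and 0.08.

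Every gene name depends on an inferred order of the blocks of an array, since the spot numbers as deposited did not match the annotation. With the inferred order the member spots stood at a median brightness percentile of 79.2 among the tested spots, and 85 of the 136 were in the brightest 25%. With the deposited numbers 88 spots would carry these symbols, at a median percentile of 49.4, with 21 in the brightest 25%. The median signal-to-noise score of the members was 5.75 to 18.8 per array and dye, against 0.467 to 1.42 over all spots. All spots here include those that failed the intensity filter which the members passed, so the filter favours the members in this comparison. Between 9.66% and 24.5% of all spots stood at 0 on an array, and between 0% and 3.45% of the 145 spots with a symbol of the rule. Those 145 spots include 9 spots of 9 genes that were missing on 1 array each, 5 of them on array F2 of 12 h. They were left out of the counts, and with them Rpl36a, which has no other spot. Another 30 spots that list a ribosomal protein among several symbols were not used. Hepatocyte marker spots (11 spots of 10 genes, among them Fga and Tdo2) stood at a median brightness percentile of 96.9.

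The ribosomal protein transcripts as a group were nearly level between bulaquine and vehicle livers at each time. The median log2 ratio over the 136 spots was 0.06 at 6 h, 0.04 at 12 h and 0.09 at 24 h, which is a few percent above vehicle, and over all 11749 tested spots it was -0.00063, -0.014 and 0.0060. At 6 h 85 of the 136 spots lay above 0 (62.5%, against 49.9% of all tested spots). At 12 h 88 did so (64.7%, against 47.8%) and at 24 h 91 (66.9%, against 50.9%). A limma fit to all 12 arrays, with Benjamini-Hochberg adjustment over all tested spots, called 1 member at 6 h at an adjusted p under 0.05, against 0.102% of all tested spots. No member was called at 12 h, against 0.46% of all tested spots, and none at 24 h, against 0.477%. At an unadjusted p under 0.05 there were 6 members at 6 h (2 higher, 4 lower; 4.41%, against 6.37% of all tested), 4 at 12 h (3 higher, 1 lower; 2.94%, against 8.6%) and 21 at 24 h (18 higher, 3 lower; 15.4%, against 13.1%). The members' share at each time was thus below or near that of the array as a whole, and at 24 h below the 22.3% of the brightest 25% of tested spots, a comparison chosen after the values were seen. At 24 h the members at an unadjusted p under 0.05 were 18 higher to 3 lower, and the spots of the brightest 25% were 227 higher to 427 lower. The lowest adjusted p of a member at 24 h was 0.215.

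**Figure D1:**
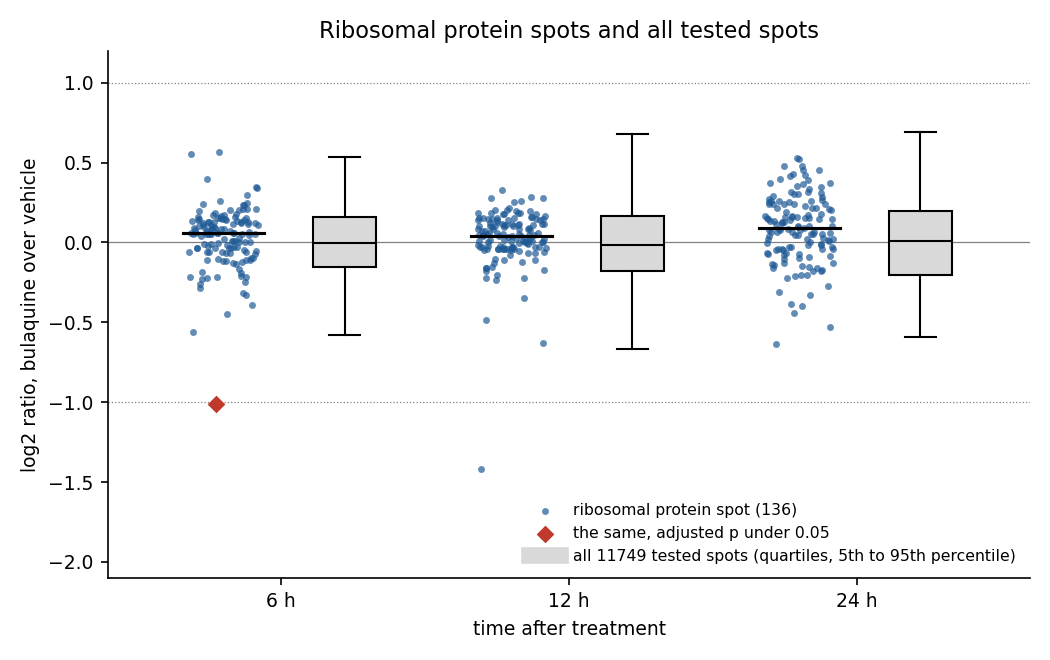
Log2 ratio of bulaquine over vehicle (vertical axis) at 6, 12 and 24 h for each of the 136 ribosomal protein spots (points, with the median as a bar), beside all 11749 tested spots (box: quartiles; whiskers: 5th to 95th percentile); dotted lines mark 2-fold. The members cluster just above 0, with medians of 0.06, 0.04 and 0.09, and the only called spot is the Rps14 spot at -1.01 at 6 h.

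The level medians were seen on single arrays too. With each spot's dye effect removed, the median over the members was -0.06, -0.08, 0.10 and 0.21 on arrays F1, F2, R1 and R2 of 6 h, 0.11, 0.10, 0.03 and -0.06 on those of 12 h, and 0.16, 0.15, 0.08 and 0.02 on those of 24 h. The array medians at 6 and 12 h lay on both sides of 0, and those at 24 h all above it, with an SD over arrays of 0.14, 0.08 and 0.07 at 6, 12 and 24 h (n = 4 each). At 6 h both F arrays lay below both R arrays, and at 12 and 24 h both F arrays lay above both R arrays. The SD thus includes a difference between dye orientations, which was not tested. Of the 1632 values of a member on an array, 19 (1.16%) lay beyond 2-fold, and 122 of the 136 spots had none. Array R2 of 24 h held 6 of the 19 and array F2 of 12 h held 4.

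The arrays bounded the changes of these transcripts more tightly than those of all tested spots. The members as a whole were bounded less tightly than the brightest 25% of tested spots. The 85 members within that 25% went either way against the other spots there, by bound and time. The median standard error of a member's log2 ratio at a time point was 0.144, against 0.221 over all tested spots and 0.116 in the brightest 25%. The 95% interval lay wholly within 2-fold of vehicle for 131 members at 6 h (96.3%, against 68.4% of all tested spots), for 131 at 12 h (96.3%, against 67.2%) and for 130 at 24 h (95.6%, against 67.1%). In the brightest 25% it did so for 97.2%, 96.5% and 96.3% of spots. Of the 85 members in the brightest 25% it did so for 97.6% at each time, against 97.2%, 96.5% and 96.2% of the other spots there. It lay within 1.5-fold for 102 of the members at 6 h (75%), 115 at 12 h (84.6%) and 87 at 24 h (64%), against 41.9%, 41.3% and 37.2% of all tested spots and 88%, 90.2% and 80% of the brightest 25%. For the 85 members in the brightest 25% the shares were 81.2%, 91.8% and 71.8%, against 88.2%, 90.2% and 80.3% of the other spots there. The SD of the members' log2 ratios over spots was 0.193, 0.186 and 0.216 at the 3 times, beside a median standard error of 0.144. Single far values enlarge that SD, the lowest being -1.01 at 6 h and -1.42 at 12 h. The quartiles were -0.06 and 0.13 at 6 h, -0.03 and 0.12 at 12 h, and -0.04 and 0.24 at 24 h. An SD and a median standard error are unlike measures, so they cannot decide whether the members differed beyond error. The sources of this spread were not tested.

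**Figure D2:**
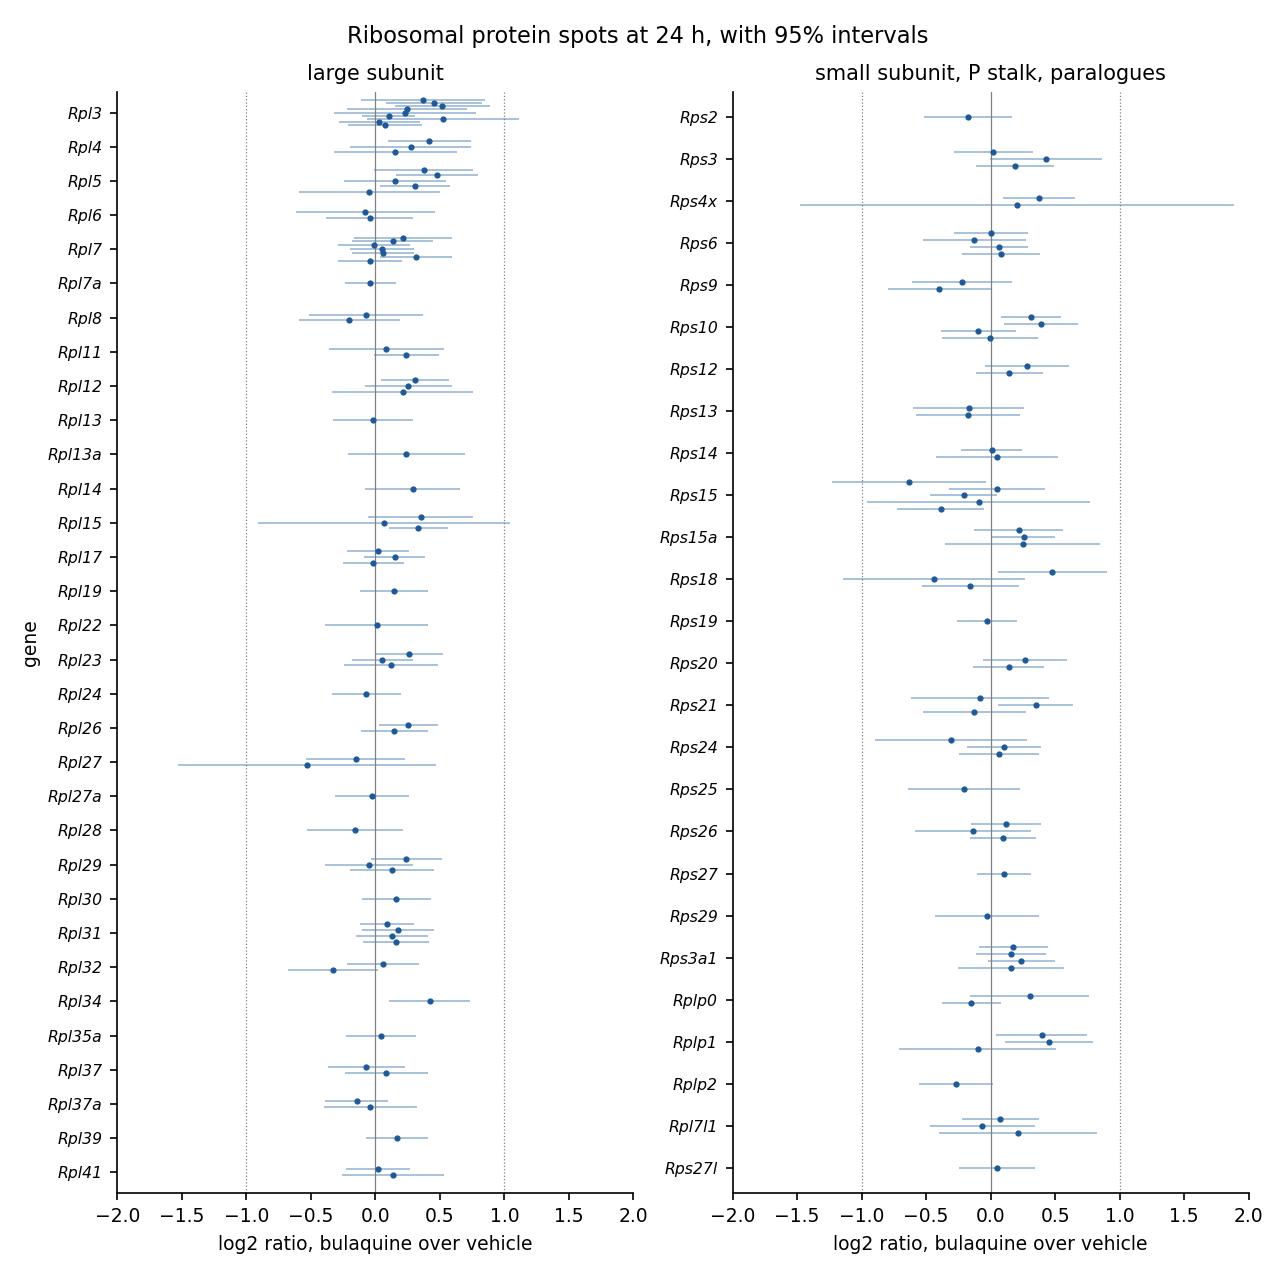
Log2 ratio of bulaquine over vehicle at 24 h (horizontal axis) for every member spot, by gene (vertical axis), with its 95% interval from the limma fit; dotted lines mark 2-fold. The spots of Rpl3 lie between 0.03 and 0.53, and 130 of the 136 intervals stay within 2-fold.

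The exception was a spot of Rps14, which encodes a protein of the platform of the small subunit. Spot 8485 had log2 ratios, with the dye effect removed, of -0.81, -0.97, -1.21 and -1.07 on arrays F1, F2, R1 and R2 of 6 h. At 12 h the 4 ratios were -0.21, -0.16, 0.12 and 0.13, and at 24 h they were 0.14, -0.06, 0.08 and -0.12. All 4 arrays of 6 h lay far below all 8 later ones, in a spot described because it was called. The share of all tested spots with such a gap was not counted. The fitted log2 ratio fell by 1.01 at 6 h (0.50-fold, SE 0.106, adjusted p = 0.0111), against -0.03 at 12 h and 0.01 at 24 h. The difference between 12 h and 6 h was 0.98 (SE 0.150, adjusted p = 0.0242), the only member called in that comparison, where 0.4% of all tested spots were called. That between 24 h and 6 h was 1.02 (SE 0.150, adjusted p = 0.0337), again the only member, against 0.187% of all tested spots. Between 24 h and 12 h no member was called, against 0.179% of all tested spots.

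The other spots of Rps14, listed with the same clone, gave other values. Spot 9361 had log2 ratios with the dye effect removed of -0.33, 0.06, 0.09 and -0.07 at 6 h, and a fitted ratio of -0.06 (SE 0.211). Spot 8448, measured on 11 arrays, was fitted separately, among the 17158 spots with at least 3 arrays at each time. Its fitted ratio there was 0.23 at 6 h, 0.17 at 12 h and 0.62 at 24 h, none of them called. The spot that fell at 6 h therefore stands alone among the 3 spots named Rps14, and the difference between these spots was not tested. Its 6 h call was lost without array F2, R1 or R2 of 6 h (adjusted p = 0.0835, 0.107 and 0.0895), with each time fitted alone (0.598), with dye-swap pairs averaged (0.515) and with a replicate block on the array labels (0.110), while the fitted ratio stayed between -1.09 and -0.94 whichever of the 12 arrays was left out. The 12 h minus 6 h call held without 4 of the 12 arrays in turn (F1 of 12 h and F1, R1 and R2 of 24 h), while the 24 h minus 6 h call was lost whichever array was left out. Over the 12 omissions these differences were 0.91 to 1.06 and 0.95 to 1.098.

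**Figure D3:**
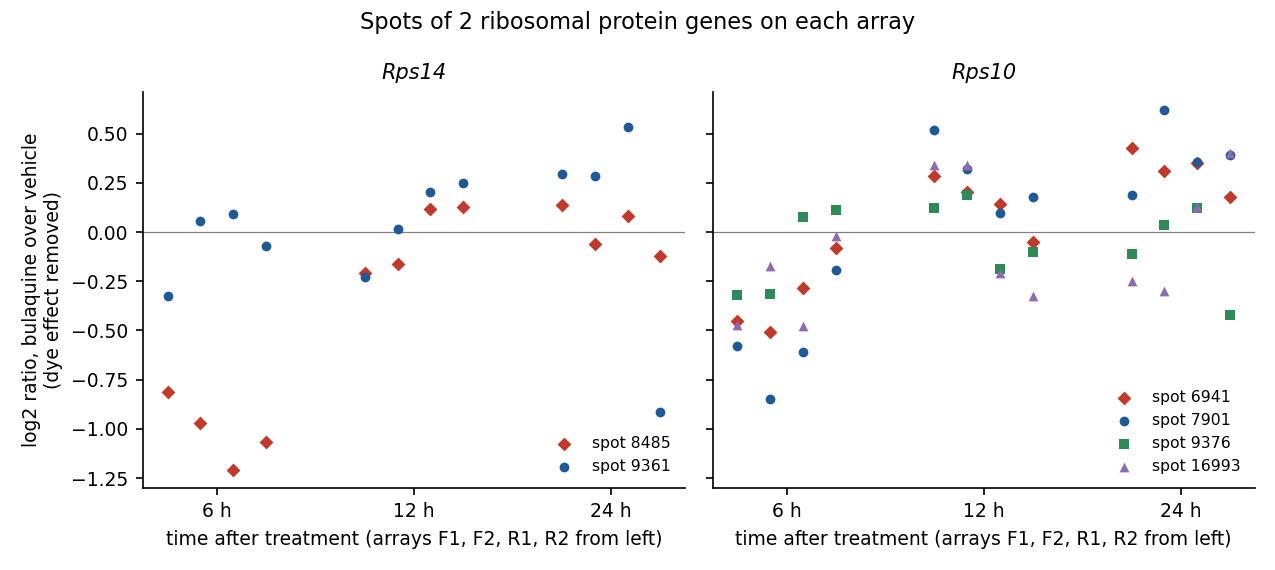
Log2 ratio of bulaquine over vehicle, with the dye effect removed (vertical axis), on each array of 6, 12 and 24 h for the 2 spots of Rps14 measured on all arrays and the 4 spots of Rps10. Rps14 spot 8485 lies between -1.21 and -0.81 at 6 h and near 0 later, while spot 9361 does not share the low values; the Rps10 spots lie mostly below 0 at 6 h and on both sides of 0 at 24 h.

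Over all small subunit spots, those of Rps14 included, the median log2 ratio was 0.06, 0.04 and 0.06 at the 3 times. Of the 52 spots 31, 34 and 31 lay above 0 (59.6%, 65.4% and 59.6%, against 49.9%, 47.8% and 50.9% of all tested spots). Rps10, a protein of the small subunit's head, was singled out after its values were seen because its 4 spots were all below 0 at 6 h, at -0.33, -0.56, -0.11 and -0.29, and none was called (lowest adjusted p = 0.298). At 24 h they stood at 0.32, 0.39, -0.09 and -0.01. For spot 7901 the difference between 24 h and 6 h was 0.95 (SE 0.180, adjusted p = 0.112), and its values with the dye effect removed were -0.58, -0.85, -0.61 and -0.19 at 6 h and 0.19, 0.62, 0.36 and 0.39 at 24 h. The arrays of 6 h and 24 h did not overlap for that spot, which was picked after its values were seen. How often this held among all tested spots was not counted. The arrays overlapped for spots 9376 and 16993, and spot 6941 stood at -0.33 at 6 h and 0.32 at 24 h.

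Rps19, a small subunit protein whose human gene is mutated in Diamond-Blackfan anaemia, had log2 ratios of 0.35, 0.56, 0.26 and 0.15 at 12 h, all above 0, with a fitted value of 0.33 that was not called (adjusted p = 0.426). At 6 h its fitted value was 0.17 and at 24 h -0.03. Rps6, the substrate of the S6 kinases, had 4 spots with fitted log2 ratios of -0.04 to 0.24 at 6 h, -0.02 to 0.04 at 12 h and -0.13 to 0.08 at 24 h. Its lowest adjusted p at any time was 0.799. Rps2, at the mRNA entry of the small subunit, had a lone spot with fitted values of -0.45, 0.05 and -0.18 at the 3 times. Rps3, beside it in the ribosome, had 3 spots from -0.16 to 0.21 at 6 h and from 0.02 to 0.43 at 24 h. None of these passed the test.

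For several small subunit genes, spots of the same gene gave opposite signs. The 3 spots of Rps18 stood at 0.48, -0.44 and -0.16 at 24 h, and the 3 spots of Rps21 at -0.08, 0.35 and -0.13. The 5 spots of Rps15, which sits in the head of the small subunit, ran from -0.64 to 0.05 at 24 h, with spot 20942 below 0 on all 4 arrays (-0.47, -0.05, -0.96 and -0.08). A pair of spots stood apart on array F2 of 12 h, where Rps4x spot 14627 had a log2 ratio of -5.69, against -0.04, -0.18 and 0.23 on the other arrays of that time, and Rps15 spot 20460 had -2.75, against 0.21, -0.06 and 0.09. That array had the lowest median Cy5 signal-to-noise score, 0.467 over all spots and 5.75 over the members. It also had the largest share of spots at 0 (24.5%), and the part of this in the values was not tested. The second Rps4x spot, 2621, had a fitted value of 0.05 at 12 h and of 0.37 at 24 h. Among the 38 genes with 2 or more spots, 4 genes at 6 h, 2 at 12 h and 4 at 24 h had spots that differed by more than 0.5 on the log2 scale.

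The large subunit spots had a median log2 ratio of 0.07, 0.05 and 0.13 at 6, 12 and 24 h. Of the 74 spots 51, 47 and 54 lay above 0 (68.9%, 63.5% and 73.0%, against 49.9%, 47.8% and 50.9% of all tested spots). None of the 74 was called. The widest set of spots was that of Rpl3, a protein that reaches towards the peptidyl transferase centre. Its 9 spots were all above 0 at 24 h, from 0.03 to 0.53, and ran from -0.39 to 0.15 at 6 h and from -0.04 to 0.18 at 12 h. The Rpl3 spot with the lowest adjusted p at 24 h, 2635, had 0.95, 0.79, 0.10 and 0.24 on the 4 arrays with the dye effect removed and a fitted value of 0.52 (SE 0.166, adjusted p = 0.238). Rpl4, which lines the exit tunnel, had 3 spots at 0.42, 0.27 and 0.16 at 24 h, against -0.23, -0.05 and -0.19 at 6 h. Rpl5, which carries the 5S ribosomal RNA with Rpl11, had 5 spots at 0.37, 0.48, 0.15, 0.31 and -0.05 at 24 h. Rpl11 had 2 spots at 0.09 and 0.24. These values did not pass the test, the lowest adjusted p among the Rpl5 spots at 24 h being 0.215.

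The other large subunit genes named did not pass the test either. The 7 spots of Rpl7 ran from -0.04 to 0.32 at 24 h and from 0.00 to 0.35 at 6 h, the highest at both times being spot 19421. Rpl24, a protein at the face between the subunits, had 1 spot with fitted ratios of 0.40, -0.01 and -0.07 at the 3 times, and its 6 h value had an adjusted p of 0.540. Rpl35a had ratios of 0.41, 0.21, 0.32 and 0.17 at 12 h, all above 0, with a fitted value of 0.28 (adjusted p = 0.580). Rpl31 had 4 spots from 0.05 to 0.11 at 6 h, from -0.05 to 0.18 at 12 h and from 0.09 to 0.17 at 24 h. Rpl32 had 2 spots at 0.06 and -0.33 at 24 h, and Rpl13a, often used as a reference transcript, had 1 spot at 0.15, 0.10 and 0.24 at the 3 times. The spots of Rpl8 and Rpl23 lay between -0.20 and 0.28 at all 3 times. Rpl29 and Rpl7a also had spots of a uniform sign at a time point, at -0.11 at 6 h and -0.20 at 12 h, and neither was called; the Rpl7a value was 0.24 without background correction.

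Over all members, 11 spots kept the same sign on all 4 arrays at 6 h (8.09%, against 11% of all tested spots), 5 at 12 h (3.68%, against 11.1%) and 14 at 24 h (10.3%, against 15.3%). The 14 of 24 h were 10 above and 4 below 0. Of the 38 genes with 2 or more spots, 16 had every spot above 0 at 24 h and 6 had every spot below 0. The shares of all tested genes that did so were not counted.

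The P stalk, which draws elongation factors to the ribosome, was covered by 6 spots. Their median log2 ratio was -0.10 at 6 h, 0.04 at 12 h and 0.10 at 24 h, and none was called. Rplp1 had 3 spots at 0.39, 0.45 and -0.10 at 24 h and at -0.14, -0.10 and -0.21 at 6 h. Rplp0, which anchors the stalk and is another common reference transcript, had 2 spots at 0.30 and -0.15 at 24 h, and Rplp2 had 1 at -0.27. Of the paralogues, Rps27l, which is induced by p53 in other settings, stood at -0.01, 0.03 and 0.05 at the 3 times (SE 0.132), and the 3 spots of Rpl7l1 lay between -0.35 and 0.21.

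The dye was called for more of these spots than the drug, in a dye effect that rests on all 12 arrays against 4 for a drug ratio. The dye effect, the part of log2(Cy5/Cy3) that kept its sign whichever sample was in Cy5, was called for 70 of the 136 members (51.5%), against 28.9% of all tested spots and 46.3% of the brightest 25%. It was brighter in Cy3 for 56 members, against 13.5% of all tested spots, and in Cy5 for 14, against 15.5%, and its median was -0.16 over members and 0.02 over all tested spots. Rplp1 (-0.81, -0.83 and -1.26), Rps2 (-0.96), Rps18 (-0.62, -0.88 and -1.10), Rpl11 (-0.92 and -0.75) and Rpl4 (-0.72, -0.73 and -0.82) were brighter in Cy3, while Rpl39 (0.40) and Rps27 (0.36) were brighter in Cy5. The 2 spots of Rpl8 went opposite ways, at -1.32 and 0.58. Of the 38 genes with 2 or more spots, 22 had dye effects of the same sign at every spot. Over 159 pairs of spots of the same gene the dye effect had a Pearson correlation of 0.57, against 0.24, -0.01 and 0.33 for the log2 ratios at 6, 12 and 24 h. These pairs share arrays and often a clone, so the values are descriptions.

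**Figure D4:**
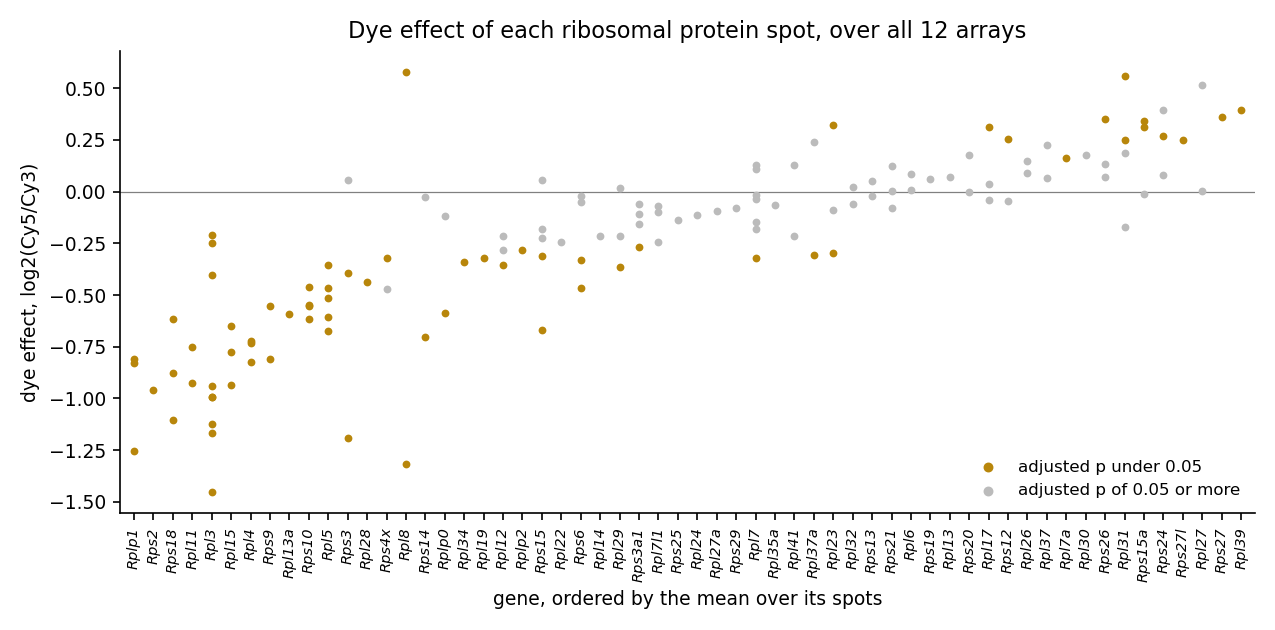
Dye effect, log2(Cy5/Cy3) over all 12 arrays (vertical axis), of each member spot, by gene in order of the mean over its spots (horizontal axis); spots at an adjusted p under 0.05 are darker. It was called for 70 of the 136 spots, 56 of them below 0. The spots lay on the same side of 0 in 22 of the 38 genes with 2 or more spots.

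The dye effect and the drug ratio of a member spot were related at 6 and 24 h in opposite senses. Over the 136 spots the Pearson correlation was 0.38 at 6 h, -0.04 at 12 h and -0.24 at 24 h, with Spearman's rho of 0.43, -0.07 and -0.23, against 0.11, 0.15 and 0.01 (Pearson) over all 11749 tested spots. The points share the same 12 arrays and the same loess curve, and no test was made. The 34 members with the strongest signal in Cy3 (dye effect of -1.45 to -0.55, 16 genes) had a median log2 ratio of -0.11 at 6 h, 0.09 at 12 h and 0.24 at 24 h. The 34 at the other end (0.06 to 0.58, 24 genes) had 0.12, 0.05 and 0.09. Rpl3, Rpl4, Rpl15 and Rplp1, whose spots gave some of the highest ratios at 24 h, have spots in the first set. Each time point holds 2 arrays in either dye orientation, so that a dye effect of constant size cancels in the fitted ratio. The part of the dye in these ratios was not tested.

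**Figure D5:**
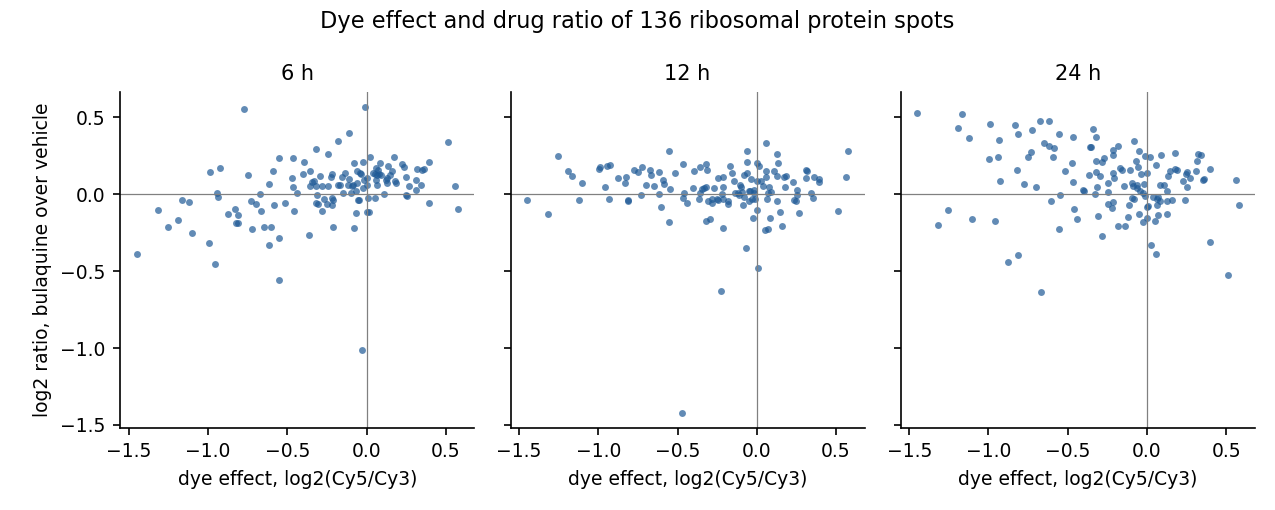
Log2 ratio of bulaquine over vehicle (vertical axis) against the dye effect, log2(Cy5/Cy3) (horizontal axis), of the 136 member spots at 6, 12 and 24 h. Spots with a strong Cy3 signal lie at lower ratios at 6 h and at higher ratios at 24 h, with Pearson correlations of 0.38, -0.04 and -0.24.

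Structural ribosomal proteins with other kinds of name were measured through Rpsa and Fau. Rpsa, a small subunit protein also known as the laminin receptor, had 5 spots that were all below 0 at 6 h, from -0.52 to -0.20, and all above 0 at 24 h, from 0.24 to 0.57. None was called (lowest adjusted p = 0.256, at 24 h), and the dye effect of these spots was -1.66 to -1.08. Fau, which encodes S30 fused to a ubiquitin-like protein, had 1 spot at 0.01, 0.05 and -0.07. Other transcripts of the TOP class (53 spots of 18 genes, such as Eef1a1 and Eif3f) had medians of -0.02, 0.10 and 0.06 at the 3 times, with none called. Translation initiation, elongation and release factors (52 spots of 26 genes) had medians of 0.09, -0.05 and 0.07, again with none called.

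Of the genes that make ribosomes, 36 spots of 29 genes were tested, with medians of -0.05, 0.04 and 0.00. One rose at 24 h, Ncl, which encodes the nucleolar protein nucleolin, with a log2 ratio of 1.096 (SE 0.16, adjusted p = 0.0182), against -0.29 at 6 h and -0.08 at 12 h; with either F array of 24 h left out it was 0.93 (F1) or 1.16 (F2), with either R array 1.19 (R1) or 1.097 (R2), and none of these was called. Among mitochondrial ribosomal proteins (41 spots of 39 genes, medians 0.02, -0.01 and -0.03) 1 rose at 24 h, Mrps25, with a log2 ratio of 0.79 (SE 0.131, adjusted p = 0.0387), a call that held without 3 of the 12 arrays in turn (F1 and R1 of 6 h and R2 of 24 h). Both calls were also lost with each time fitted alone (adjusted p = 0.517 for each) and with dye-swap pairs averaged (0.187 for Ncl and 0.218 for Mrps25). The 15 spots of genes that signal to ribosomal protein mRNAs or to S6 had medians of 0.06, -0.07 and 0.03 and none was called. Larp1, the TOP binding protein, had 3 spots between -0.28 and 0.49 over the 3 times, and Mtor had 1 dim spot at -0.21, -0.69 and 0.41. The 6 spots of p53 targets and nucleolar stress genes had medians of -0.14, 0.13 and 0.03, none called, with Mdm2 at -1.13 at 6 h (adjusted p = 0.352).

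Markers of the cell types of the liver were covered by few spots. The 11 hepatocyte spots had medians of -0.004, -0.06 and -0.07 at 6, 12 and 24 h, with 6, 7 and 7 of them below 0. Among them Tdo2 rose by 0.76 and Fga by 0.72 at 6 h (adjusted p = 0.0438 for each), and Fga by 0.59 at 12 h (adjusted p = 0.0470), and these 3 calls were lost whichever array was left out. The 2 spots of Trf stood at -0.80 and -0.67 at 6 h and Apoa1 at -2.20 at 12 h (SE 1.15), none of them called. The 3 Kupffer cell and macrophage spots had a median of -0.67 at 6 h, -0.20 at 12 h and 0.27 at 24 h, and the 8 stellate and fibroblast spots had -0.40, 0.13 and 0.03, none of them called. The 4 endothelial spots had -0.02, -0.05 and -0.07, the 2 neutrophil spots 0.24, -0.24 and -0.23, and the 2 lymphocyte spots -0.01, -0.17 and -0.11. The erythroid list was covered by 1 spot of Car2 alone (brightness percentile 41.3), at -0.81, 0.22 and 1.05, none of them called. On single arrays of 6 h that spot ran from -2.48 to 0.36 with the dye effect removed. No bile duct marker was measured on all 12 arrays. Their part in the ratios of the ribosomal proteins was not tested.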

How the data were processed

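The series' design text names ImageQuant v5.0 for scanning and ArrayVision v8.0 for reading the spots, and LOWESS with log ratios from Avadis v4 for the authors' background-corrected values. Per the file headers, the deposited intensity columns hold foreground, background and background-corrected intensity per dye, with a signal-to-noise score per dye, of unstated formula. The deposited corrected intensity equalled foreground minus background within 0.001 or stood at 0. The authors' deposited value table holds log2 ratios, which matched log2(Cy5/Cy3) after loess at r of 0.998 to 1.000, with dye-swapped arrays left unturned. Its array medians were -0.01 to 0.04.

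Here, a corrected intensity of 0 counted as missing. A global loess (span 0.3) was fitted to log2(Cy5/Cy3) within each array with limma 3.58.1 in R 4.3.3, and the ratio was turned to bulaquine over vehicle. The 11749 spots measured on all 12 arrays were fitted with a column for each of the 3 times and a dye effect per spot (8 residual degrees of freedom, 9.78 after eBayes), with Benjamini-Hochberg adjustment over all of them and calls at an adjusted p under 0.05. All 4 arrays of a time enter each value, and their number limits the precision. The computation was tested on simulated data. Values "with the dye effect removed" are an array's ratio less the fitted dye effect. Levels of different spots were not compared, apart from brightness percentiles.

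Blocks of 480 spots were renumbered between row-wise and column-wise order of 12 by 4 blocks to pair them with the annotation. Members, gene lists, classes and the brightest 25% were chosen with earlier results of these data known. Genes named were those called, up to 4 spots a direction and time of uniform sign and smallest p, and a panel of 22 genes of which 19 were measured; Rps10, Rpl15, Rpl39, Rps27, Rpl7l1, Rpsa and spots that stand out on an array were added after their values were seen. The labels F1, F2, R1 and R2 recur at each time, and the deviations of arrays with the same label had r of -0.22 to -0.08 over spots. Removing a dye effect fitted over all 12 arrays lowers such r, so it cannot decide whether the labels mark pairs. Arrays with the same label were not treated as pairs, apart from the replicate block among the alternatives. Start sites are RefSeq's. Python 3.11.15 and matplotlib 3.10.9 were used for the other tables and the figures.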

Additional observations from a re-analysis of the deposited data

Results flagged for a closer look

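Rps14 spot 8485 differed between time points by the test of the difference itself. Its log2 ratio of bulaquine over vehicle was higher by 0.98 at 12 h than at 6 h (adjusted p = 0.0242) and by 1.02 at 24 h than at 6 h (adjusted p = 0.0337), and the ratio lay below 0 on all 4 arrays of 6 h. The other Rps14 spot on all 12 arrays had differences of 0.12 and 0.11.

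A sample far from the others of its group was found for 5 of the 87 groups of 4 arrays examined. Chance gives such a finding in about 1 of 20 groups chosen without regard to their values. Some groups here were chosen for their extreme values, so that rate cannot be set against the 5 of 87. Rpl29 spot 5342 had -0.31 on array F1 of 6 h with the dye effect removed, against -0.07 to -0.03 on the other arrays of 6 h. Rps20 spot 626 had -0.28 on array R2 of 12 h with the dye effect removed, against 0.22 to 0.27 on the others. Rps4x spot 14627 and Rps15 spot 20460, examined because they hold the lowest values of any member, had log2 ratios of -5.69 and -2.75 on array F2 of 12 h, against -0.18 to 0.23 and -0.06 to 0.21 on the other arrays of that time. Spot 20460 also had 0.16 on array F2 of 24 h with the dye effect removed, against -0.19 to -0.16 on the others.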

How the results depend on the processing

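The members' median log2 ratio moved by less than the spread between arrays under each of 24 alternatives, from -0.02 to 0.09 at 6 h, -0.01 to 0.09 at 12 h and 0.03 to 0.14 at 24 h. The Rps14 spot kept a 6 h ratio of -1.09 to -0.94 under 22 alternatives. It was called in 16 of them, and 0 members were called at 6 h with each time fitted alone (adjusted p = 0.598), with dye-swap pairs averaged (0.515), with the spots of a gene averaged, or with a replicate block on the array labels (0.110). Leaving out an array gave 0 to 1 members called at 6 h, 0 at 12 h and 0 at 24 h, 0 to 1 for 12 h minus 6 h, 0 for 24 h minus 12 h and 0 for 24 h minus 6 h. The difference 24 h minus 6 h of the Rps14 spot lost its call whichever of the 12 arrays was left out, at 0.95 to 1.098. That comparison gave 0 called members with median centring, and 2 without the dimmest 30% of spots, where Rps10 joined Rps14. Averaging dye-swap pairs, the replicate block or averaging the spots of a gene left 0 members called for 12 h minus 6 h and for 24 h minus 6 h, as did testing spots with at least 3 arrays a time. Without background correction 1 member, Rpl15, was called at 24 h, among 193 spots in all, against 56. With spot numbers as deposited, 88 other spots carry the symbols, of which 0 were called at 6 h, 1 at 12 h, 2 at 24 h, 1 for 12 h minus 6 h, 1 for 24 h minus 12 h and 0 for 24 h minus 6 h. Except where the alternative leaves out arrays or changes which spots carry the names, the cause was not tested.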
